A study of Mus musculus with 6 samples.

Results

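The F-box genes of the mouse 1-cell embryo are described here from their RNA levels in 6 libraries. F-box genes were taken as the protein-coding genes whose symbol starts with Fbxw, Fbxo or Fbxl followed by a digit, with Fbxo43 left out, which gave 76 of the 36065 genes in the table. Of these, 23 were Fbxw, 35 Fbxo and 18 Fbxl genes, and 14 of the Fbxw genes lie side by side on chromosome 9. The libraries came from wild-type 1-cell embryos kept in vitro with DMSO as the control, with CBR-5884 (the group CBR), or with CBR-5884 together with S-adenosylmethionine (the group CBR+SAM), with 2 biological replicates each. CBR-5884 is an inhibitor of serine synthesis, and S-adenosylmethionine is the methyl donor of most cellular methylation reactions. Strain, dose, time in culture and the number of embryos per library are not given in the sources used here. cDNA was made by a template-switching method and carries no molecular identifiers.

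An F-box protein is the part of an SCF ubiquitin ligase that chooses the substrate: its F-box binds Skp1, Skp1 binds the cullin Cul1, and Cul1 carries the RING protein Rbx1 and the E2 enzyme. Fbxw proteins recognise substrates through WD40 repeats, Fbxl proteins through leucine-rich repeats, and Fbxo proteins through other domains. In the egg and the early embryo, transcription is at first silent or low, so that the RNA present is mostly maternal, and ubiquitin ligases take part in the removal of maternal proteins and in the exit from meiosis.

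The cluster lies on the minus strand of chromosome 9 in the mm10 assembly, from Fbxw21 at one end to Fbxw27 at the other, over 651.224 kb. GENCODE M21 places 24 genes in this interval, 14 of them protein-coding, and all 14 are Fbxw genes. The interval also holds Fbxw23, a transcribed pseudogene with a mean level of 157.3, which is not among the 14 nor in their sums. Fbxw28 (ENSMUSG00000054087) lies at chr9:109322886-109339659, Fbxw14 (ENSMUSG00000105589) at chr9:109270790-109287676 and Fbxw24 (ENSMUSG00000062275) at chr9:109601116-109626057. Each of the 14 has 10 coding exons and between 1392 and 1407 coding bases. Over the 91 pairs, 79.07% to 99.07% of aligned coding bases were identical, with a median of 83.97%. Fbxw17, an Fbxw gene on chromosome 13 with 1398 coding bases, shared only 47.77% to 49.93% of aligned bases with the cluster genes.

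**Figure D1:**
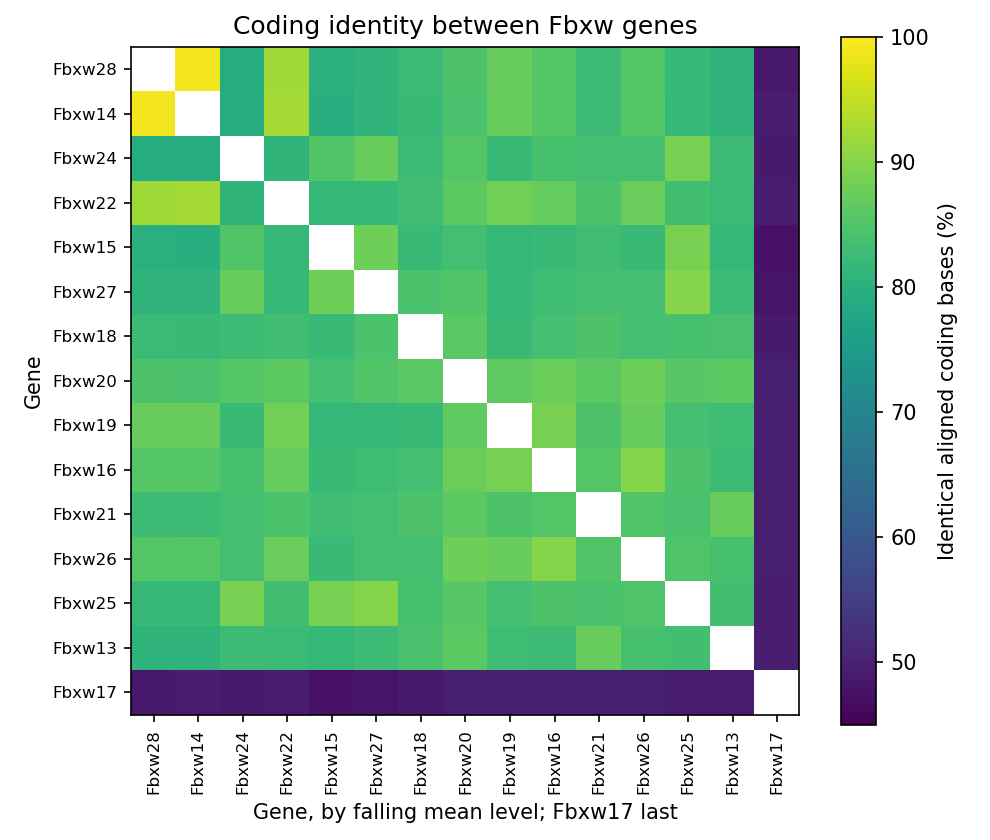
Share of identical aligned coding bases (%, colour) for each pair of the 14 chromosome 9 Fbxw genes and Fbxw17. Fbxw28 and Fbxw14 form the brightest pair at 99.07%, and Fbxw17 stands at 49.93% or less against every cluster gene.

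The closest pair, Fbxw28 and Fbxw14, differed at 13 of 1398 coding bases, in 12 codons. A 90-base stretch of the coding sequence, bases 835 to 924 counted from the A of the start codon, is printed for these and other Fbxw genes. It holds 4 of the 13 differences between Fbxw28 and Fbxw14, and no 90-base stretch holds more. The pair is thus less alike here than over the whole coding sequence. Capitals mark bases that differ from Fbxw28, and the sequences are those of GENCODE M21 transcripts.
Fbxw28: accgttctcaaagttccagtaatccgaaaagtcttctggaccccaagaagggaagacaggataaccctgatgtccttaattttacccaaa
Fbxw14: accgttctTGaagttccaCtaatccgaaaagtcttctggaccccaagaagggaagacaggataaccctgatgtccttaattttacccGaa
Fbxw22: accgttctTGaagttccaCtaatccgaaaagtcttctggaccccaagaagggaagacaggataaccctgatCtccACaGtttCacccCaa
Fbxw24: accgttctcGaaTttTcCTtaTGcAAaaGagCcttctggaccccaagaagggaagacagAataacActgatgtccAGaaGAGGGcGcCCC
Fbxw13: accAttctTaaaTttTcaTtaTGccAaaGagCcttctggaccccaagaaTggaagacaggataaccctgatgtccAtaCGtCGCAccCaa
Fbxw17: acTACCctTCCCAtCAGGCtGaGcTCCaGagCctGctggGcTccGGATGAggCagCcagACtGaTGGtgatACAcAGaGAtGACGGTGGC
In this stretch Fbxw14 carried 4 differences from Fbxw28 (C843T, A844G, G853C and A922G, with the base of Fbxw28 first), Fbxw22 carried 9, Fbxw13 19, Fbxw24 24 and Fbxw17 54. Likeness between cluster genes bears on the levels, because a short read from a stretch that genes share cannot be placed in 1 of them. Of the 31-base words in the transcripts of Fbxw28, 73.9% also occurred in another gene, and of those of Fbxw14, 70.39%, mostly in each other. The other 12 cluster genes shared between 15.25% and 33.3% of their words. Fbxw16, at 33.3%, shared 18.01% with the pseudogene Fbxw23. The median was 0% for Fbxo and 0.7515% for Fbxl genes, so the split of reads between Fbxw28 and Fbxw14 is uncertain while their sum is less so.

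The cluster genes were alike upstream of their starts too. RefSeq (GRCm38.p6) promoters were at hand for 58 of the 76 F-box genes and for 11 of the 14 cluster genes. Between 81.66% and 97.19% of aligned promoter bases were identical over 55 cluster pairs, with a median of 90.8%. The 250 bases before the start are printed for the most abundant member, for the third most abundant, for a member of low level, for the member with the fewest of the shared motifs and for Fbxw17, in the direction of the gene. Capitals mark CAGCTG, an E-box, and TTTAAA, an AT-rich word.
Fbxw28, chr9:109339660-109339909, minus strand: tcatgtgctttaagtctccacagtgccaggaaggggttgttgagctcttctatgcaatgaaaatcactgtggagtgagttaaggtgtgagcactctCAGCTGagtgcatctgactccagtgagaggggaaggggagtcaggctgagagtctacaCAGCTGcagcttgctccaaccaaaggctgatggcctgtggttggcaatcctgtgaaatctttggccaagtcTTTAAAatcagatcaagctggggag
Fbxw24, chr9:109626060-109626309, minus strand: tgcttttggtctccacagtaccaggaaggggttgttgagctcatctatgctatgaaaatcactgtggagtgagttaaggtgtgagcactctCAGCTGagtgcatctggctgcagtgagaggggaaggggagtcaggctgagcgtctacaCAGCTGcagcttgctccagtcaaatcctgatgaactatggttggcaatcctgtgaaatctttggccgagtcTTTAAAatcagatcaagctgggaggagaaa
Fbxw25, chr9:109664653-109664902, minus strand: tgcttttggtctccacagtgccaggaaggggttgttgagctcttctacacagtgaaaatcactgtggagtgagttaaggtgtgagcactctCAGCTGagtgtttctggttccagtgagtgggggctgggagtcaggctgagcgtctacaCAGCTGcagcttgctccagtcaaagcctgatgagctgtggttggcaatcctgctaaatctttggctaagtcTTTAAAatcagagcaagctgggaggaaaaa
Fbxw20, chr9:109234755-109235004, minus strand: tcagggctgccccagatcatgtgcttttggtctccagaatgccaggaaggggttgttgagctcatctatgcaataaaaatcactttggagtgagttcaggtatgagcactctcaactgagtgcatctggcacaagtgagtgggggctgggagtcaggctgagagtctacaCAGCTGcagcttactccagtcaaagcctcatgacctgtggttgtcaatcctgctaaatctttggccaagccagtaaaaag
Fbxw17, chr13:50417614-50417863, plus strand: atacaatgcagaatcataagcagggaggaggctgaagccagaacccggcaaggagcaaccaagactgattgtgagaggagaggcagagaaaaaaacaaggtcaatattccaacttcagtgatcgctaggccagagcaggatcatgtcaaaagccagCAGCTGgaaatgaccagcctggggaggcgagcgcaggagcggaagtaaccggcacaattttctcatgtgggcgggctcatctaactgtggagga
CAGCTG, which reads the same on both strands, was present in these 250 bases in 11 of 11 cluster promoters, in 9 of 47 other F-box promoters (19.1%) and in 12.8% of all 27025 promoters. TTTAAA, also its own reverse complement, was present in 10 of 11, in 14.9% of the other F-box promoters and in 12.1% of all. Both words occurred together in 10 of 11 cluster promoters (90.9%), in 6.38% of the other F-box promoters and in 1.29% of all. In 10 cluster promoters CAGCTG occurred in a pair with 56 to 58 bases from the start of one copy to the start of the next. TTTAAA began 10 to 54 bases before the annotated start, with a median of 29. The words TATAAA and TAATTA were in none of the 11, against 13% and 4.9% of all promoters, and CCAAT was in 1 of 11, against 34.5% (each searched on both strands). These words were chosen after the sequences had been looked at, the 11 promoters are copies of one another, and a match is a description of letters only. Fbxw25 had the same pair of CAGCTG and the same TTTAAA as Fbxw28, whose mean level was 33.8 times higher.

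Levels are given as deposited, in units like TPM (transcript abundance per library). TPM is divided by transcript length, and comparisons between genes here assume that the deposited values were too. The column sums were 956209 to 1059424, and the read depth behind them was not given with the values, so no counting error is attached. Where values of 6 libraries are listed, the order is DMSO replicates 1 and 2, CBR replicates 1 and 2, then CBR+SAM replicates 1 and 2. The libraries held the transcripts of the oocyte and zygote, with all 10 marker genes present and summed levels of 24500 to 30800. Cumulus cell markers summed to 8.73 to 14.4 (Cyp19a1 alone reached 1, and Ptx3, Foxl2 and Amh were near 0), sperm markers to 11.5 to 16.4 (mostly Prm2), oviduct markers to 2.89 to 4.76 and blood markers to 0.635 or less. CBR+SAM replicate 2 stood apart: its correlations with the other 5 libraries, over log2 values of the genes tested, were 0.971 to 0.979, while all other pairs lay between 0.982 and 0.989. Below, differences of named genes and of the cluster that include it are also given without it where that changes their sign or moves them by more than 1.5 times.

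The 14 cluster genes made up 2.28% to 2.76% of all deposited signal in a library. Their sum was 22460 to 29100, and the Fbxw genes together held 94.0% to 95.9% of the summed level of the 76 F-box genes. The Fbxo sum was 1052 to 1306 and the Fbxl sum 205.3 to 249. The median gene of the cluster had a mean of 729 over the 6 libraries, against 2.39 for the 9 Fbxw genes elsewhere, 3.85 for Fbxo, 4.14 for Fbxl and 0.877 for all protein-coding genes. Of the 14 cluster genes, 10 were above Fbxo8, the highest F-box gene outside the cluster, and 4 of them belonged to the 154 genes of the table at 1000 or above on average. The highest cluster gene had 316.8 times the mean of the lowest, so a place in the cluster did not go with 1 level.

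**Figure D2:**
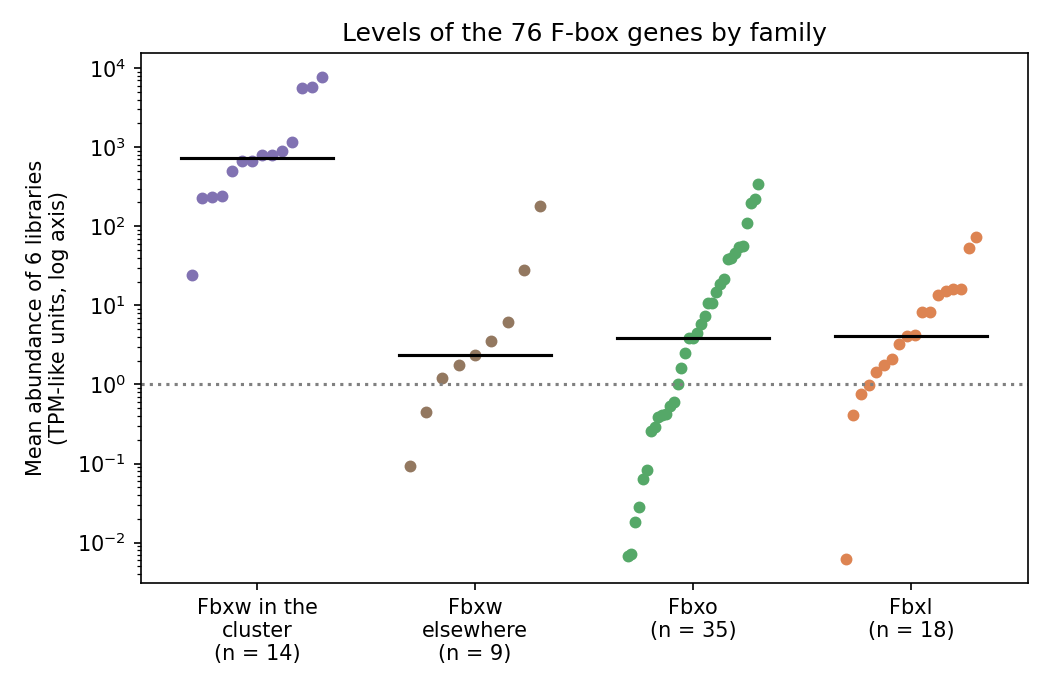
Mean abundance of each F-box gene over the 6 libraries (points, TPM-like units, log axis) by family, with the family median (bar) and a dotted line at 1. The cluster median of 729 lies far above 2.39, 3.85 and 4.14 in the other families, while the highest Fbxo gene, at 341, overlaps the lower cluster genes.

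Fbxw28, Fbxw14 and Fbxw24 carried most of this RNA, 74.3% to 76.8% of the cluster sum in each library. Fbxw28 had values of 6807, 7987, 7203, 8192, 7364 and 8631, and its mean of 7697 was the 10th highest of all 36065 genes. Fbxw14 had 5087, 5957, 5435, 6170, 5452 and 6842, with rank 19. Fbxw24 had 5040, 5693, 5303, 5680, 5529 and 6236, with rank 22. In all 3 groups each of these genes was higher in replicate 2 than in replicate 1, and the groups overlapped. Fbxw28 held 29.7% to 31.1% of the cluster sum, Fbxw14 22.5% to 23.5% and Fbxw24 21.4% to 22.9%, so the proportions moved less between libraries than the levels did. Fbxw14 was above Fbxw24 in 5 of 6 libraries and the 2 means differed by less than the SD of either gene over the libraries.

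The next group of 7 genes lay between 409 and 1263. Fbxw22 had 1063, 1179, 1106, 1198, 1133 and 1263. After Fbxw28 it is the cluster gene nearest in sequence to Fbxw14, with 92.62% of coding bases identical, and it had the smallest spread of the cluster, with a coefficient of variation of 6.16%. Fbxw15 had 807, 1039, 715, 879, 829 and 1167, and Fbxw27 had 743, 796, 703, 770, 741 and 970. Fbxw18 had 670, 905, 702, 810, 695 and 930, and Fbxw19 had 518, 825, 534, 650, 584 and 929. In Fbxw19 the highest library was 1.79 times the lowest, against 1.27 times in Fbxw28. Fbxw20 had 592, 687, 605, 745, 698 and 714, and Fbxw16 had 409, 591, 429, 540, 457 and 560. These last genes were not highest in CBR+SAM replicate 2: Fbxw20 was highest in CBR replicate 2 and Fbxw16 in DMSO replicate 2.

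The lowest cluster genes were Fbxw21, Fbxw26, Fbxw25 and Fbxw13. Fbxw21 had 238, 262, 200, 234, 220 and 280. Fbxw26 had 241, 248, 202, 193, 227 and 281, so that both CBR libraries were below the other 4. Fbxw25 had 227, 224, 196, 227, 231 and 259. Fbxw13, at 20.2, 29.8, 19.3, 23.8, 18.6 and 34.2, was the only cluster gene under 100 and varied most, with a coefficient of variation of 26.2%. It lies between Fbxw21 and Fbxw20 on the chromosome, which had 9.84 and 27.7 times its mean.

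**Figure D3:**
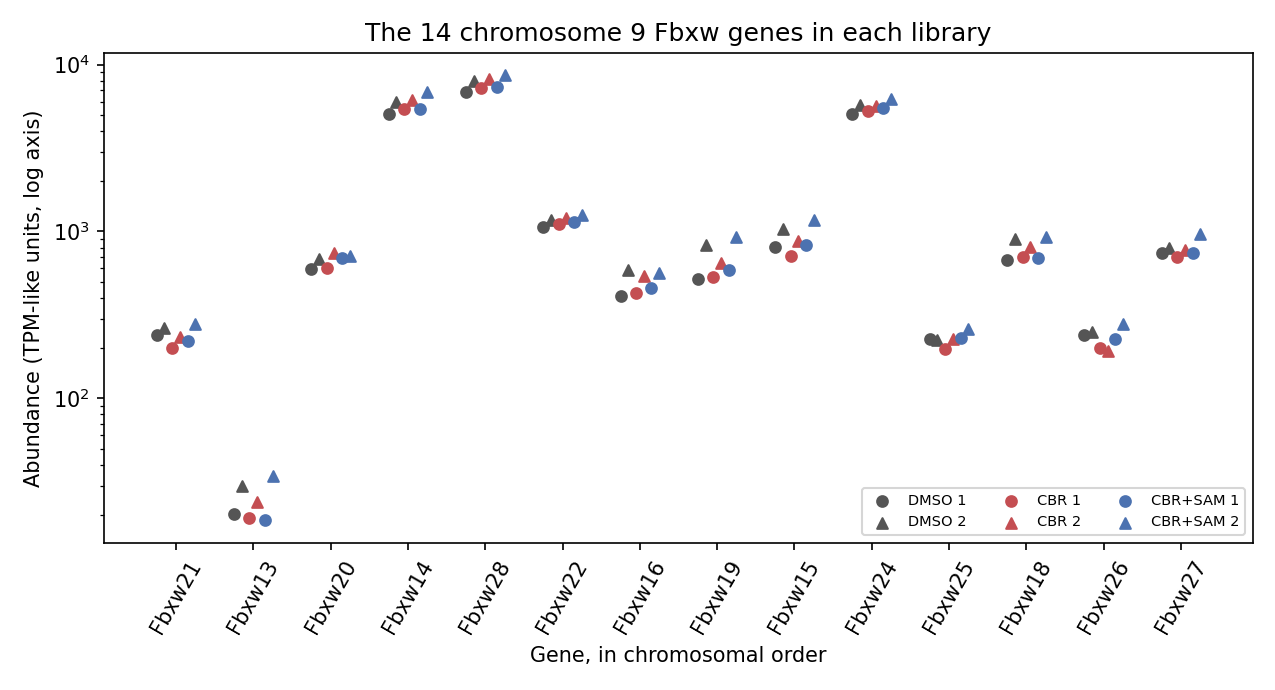
Abundance of the 14 chromosome 9 Fbxw genes (TPM-like units, log axis) in chromosomal order, with 1 point per library (colour for the group, circle for replicate 1, triangle for replicate 2). Levels differ between neighbours along the chromosome, from 24.3 on average for Fbxw13 to 7697 for Fbxw28, and triangles lie above circles in most genes.

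Outside the cluster, 7 of 9 Fbxw genes had a mean of 1 or more. Fbxw4, whose locus is known from limb malformations, had 167, 206, 194, 200, 190 and 130. Fbxw2 had 27.4, 31, 29.8, 26.2, 23.0 and 29.5. Fbxw11, a paralog of Btrc (beta-TrCP) that recognises phosphorylated beta-catenin and Emi proteins, had 7.32, 5.51, 6.26, 5.62, 5.57 and 6.31. These widely expressed genes were present in all libraries at levels far below most of the cluster. Fbxw17 had 4, 2.06, 5.89, 3.14, 3.53 and 2.56. Fbxw7, the receptor for cyclin E and Myc, had 2.57, 2.33, 2.63, 1.73, 2.38 and 2.67. Fbxw8, which works with the cullin Cul7, had 2.02, 2.36, 1.34, 1.75, 1.49 and 1.61, and Fbxw5 had 0.829, 1.25, 1.15, 0.980, 1.69 and 1.42. Fbxw9 and Fbxw10 were below 1 on average.

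Among the Fbxo genes, 4 of 35 had a mean of 100 or more. Fbxo8, which pairs an F-box with a Sec7 domain, had 348, 347, 329, 372, 363 and 285. Fbxo34, with 29.53% of its 31-base words shared with other genes, had 220, 229, 224, 239, 246 and 182. Fbxo5 (Emi1), an inhibitor of the anaphase-promoting complex rather than an SCF receptor in its best-known role, had 218, 198, 218, 195, 233 and 126. All 3 were lowest in CBR+SAM replicate 2, the library in which most cluster genes had their highest deposited value. Fbxo28 had 111, 110, 107, 124, 118 and 99.9, and Fbxo30 had 58.3, 61.0, 55.9, 54.8, 67.3 and 38.7. Fbxo11, a receptor for Bcl6 and Cdt2, had 51.7, 51.0, 55.7, 54.5, 53.9 and 61.8. Fbxo15, a marker of pluripotent cells, had 47.3, 37.8, 53.5, 44.9, 51.3 and 44.1. Fbxo33, Fbxo9 and Fbxo36 completed the 10 highest, with means of 39.2, 38.6 and 21.4. Fbxo33 was between 31 and 40.4 in 5 libraries and 58.7 in CBR+SAM replicate 2. Fbxo9 had 33.6, 39.3, 39.6, 45.1, 39.4 and 34.9, and Fbxo36 ranged from 17.8 to 27.6.

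No Fbxl gene reached a mean of 100. Fbxl5, the iron-regulated receptor for the iron regulatory protein Ireb2, had 75.6, 76.6, 75.7, 79.1, 81.8 and 50.5. Fbxl17, which removes misassembled BTB proteins, had 49.7, 46.6, 53.7, 64.1, 57.7 and 48.9. Fbxl6 ranged from 14.6 to 17.9, Fbxl12 from 10.8 to 23.8, and Fbxl19, which binds CpG islands, from 10.8 to 17.4. Fbxl12 shares 35.91% of its 31-base words with Ubl5, so its level is uncertain. Fbxl20 had 16.5, 19.9, 12.9, 20.8, 15.6 and 6.33, the lowest value again in CBR+SAM replicate 2. The mitochondrial Fbxl4 had a mean of 8.23, Fbxl14, a receptor for Snail, 4.21, and Fbxl21 4.07. In all, 18 F-box genes (13 Fbxo, 3 Fbxl and 2 Fbxw) did not reach 1 in at least 2 libraries and were not tested. Their highest single value was 1.41, and none was at 0 in every library.

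The treatments were compared gene by gene with limma on log2(value + 1) over 12249 genes, of which 58 were F-box genes (14 of the cluster, 7 other Fbxw, 22 Fbxo and 15 Fbxl). The 3 comparisons share libraries, since each group enters in 2 of them. Differences below are on this log2 scale, which understates changes of genes near 1. With 2 libraries a group, an exact permutation test of 1 gene cannot go below p = 0.33, and p-values here measure only the spread between these libraries. Levels are relative to the rest of a library, so neither the number of embryos nor the RNA per embryo can be read from them.

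CBR was compared with DMSO to see what the inhibitor did to these RNAs. No F-box gene passed an adjusted p of 0.05 (0 of 58), and over all genes percent called was 0%. None passed an unadjusted p of 0.05 either, where 2.12% of all genes did. The CBR and DMSO libraries did not overlap in 14 of 58 F-box genes, 24.1% beside 33% of all genes tested. The median log2 difference was -0.06 over the cluster (9 of 14 genes lower), 0.01 over Fbxo, 0.01 over Fbxl and -0.01 over all genes. The count of 9 lower genes in the cluster was not stable: it was 14 when DMSO replicate 1 or CBR replicate 2 was left out, 5 when CBR replicate 1 or DMSO replicate 2 was left out, and 11 when each column was scaled to the same sum.

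The smallest p belonged to Fbxw26, with a mean of 197 ± 6.28 (SD, n = 2) in CBR and 244 ± 5.49 (SD, n = 2) in DMSO. Its log2 difference was -0.31 (SE 0.15, 95% interval -0.67 to 0.05, limma adjusted p = 1.00 by Benjamini-Hochberg). Fbxw21, Fbxw8, Fbxo22 and Fbxl2 also had both CBR libraries below both DMSO libraries, with log2 differences of -0.21, -0.33, -0.33 and -0.26. Fbxl17, Fbxo9, Fbxl8, Fbxo11 and Fbxl18 had both CBR libraries above, with 0.28, 0.21, 0.17, 0.10 and 0.11. For Fbxw28 the difference was 0.06 with an interval of -0.33 to 0.45, and for all 14 cluster genes the interval lay within 1 log2 unit of 0. A change of more than 2-fold in a cluster gene was thus outside every interval, whereas smaller changes were not.

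CBR+SAM was compared with CBR to see what adding the methyl donor did. No F-box gene was called at an adjusted p of 0.05 (0 of 58, limma), where 1 of 12249 genes was (0.00816%), and none at an unadjusted p of 0.05, where 3.09% were. The groups did not overlap in 11 of 58 F-box genes (19.0%), beside 27.5% of all genes. All 14 cluster genes had a positive difference, from 0.05 to 0.35 with a median of 0.15, and all 14 stayed positive under the 3 other scalings; over all genes the median was 0.01, over Fbxo 0.01 and over Fbxl -0.0040. The direction rested on CBR+SAM replicate 2: without that library 7 of 14 were positive and the median was -0.00011. Without CBR replicate 1, 8 of 14 were positive, with a median of 0.07. Without CBR+SAM replicate 1, which leaves replicate 2 alone in its group, the median was 0.30, and 5 of 14 had an unadjusted p under 0.05, where 19.5% of all genes did, with none past the adjusted threshold.

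Fbxw26 again had the smallest p, with a mean of 254 ± 38.1 (SD, n = 2) in CBR+SAM. Its log2 difference from CBR was 0.35 (SE 0.15, 95% interval -0.01 to 0.71, limma adjusted p = 0.988). Both CBR+SAM libraries, at 227 and 281, were above both CBR libraries, at 202 and 193. Without CBR+SAM replicate 2 the difference was 0.20. This comparison and the one of CBR with DMSO rest on the same CBR libraries. Fbxw25, Fbxw5, Fbxo45 and Fbxo3 also had both CBR+SAM libraries above both CBR libraries, with log2 differences of 0.21, 0.30, 0.29 and 0.19. Fbxl8, Fbxw4, Fbxl21 and Fbxo9 had both below, with -0.39, -0.32, -0.25 and -0.18; without CBR+SAM replicate 2, those of Fbxw4 and Fbxo9 were -0.05 and -0.10, and those of Fbxw25, Fbxo45 and Fbxo3 were 0.13, 0.14 and 0.05. Only Fbxw19, Fbxw17 and Fbxl20 had intervals that passed 1 log2 unit in this comparison, so 55 of 58 lay within it.

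CBR+SAM was also compared with DMSO. No F-box gene was called at an adjusted p of 0.05 (0 of 58, limma), where 0.00816% of all genes were, and none at an unadjusted p of 0.05, where 2.14% were. The groups did not overlap in 9 of 58 F-box genes (15.5%), beside 24.5% of all genes. The median was 0.11 over the cluster, -0.02 over Fbxo, 0.08 over Fbxl and -0.00479 over all genes. With CBR+SAM replicate 2 left out it was -0.08 over the cluster, 0.05 over Fbxo and -0.17 over Fbxl. In the cluster 13 of 14 differences were positive. The count fell to 9 with each column scaled to the same sum, 7 with DMSO replicate 1 left out and 4 with CBR+SAM replicate 2 left out. It rose to 14 under median-ratio scaling, and also when either DMSO replicate 2 or CBR+SAM replicate 1 was dropped. Fbxl20, a receptor for the synaptic protein RIM1, had the smallest p, with a mean of 11.0 ± 6.56 (SD, n = 2) in CBR+SAM and 18.2 ± 2.42 (SD, n = 2) in DMSO. Its log2 difference was -0.79 (SE 0.39, 95% interval -1.72 to 0.13, limma adjusted p = 1.00), and it was -0.20 without CBR+SAM replicate 2, where the gene had 6.33. Fbxl4, Fbxw8 and Fbxl8 also had both CBR+SAM libraries below both DMSO libraries, with -0.30, -0.32 and -0.23; that of Fbxl4 was -0.11 without CBR+SAM replicate 2. Fbxl18, Fbxw5, Fbxo11, Fbxw20 and Fbxw25 had both above, with 0.32, 0.33, 0.17, 0.15 and 0.12. Without that library the differences of Fbxl18, Fbxo11 and Fbxw25 were 0.19, 0.07 and 0.03.

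**Figure D4:**
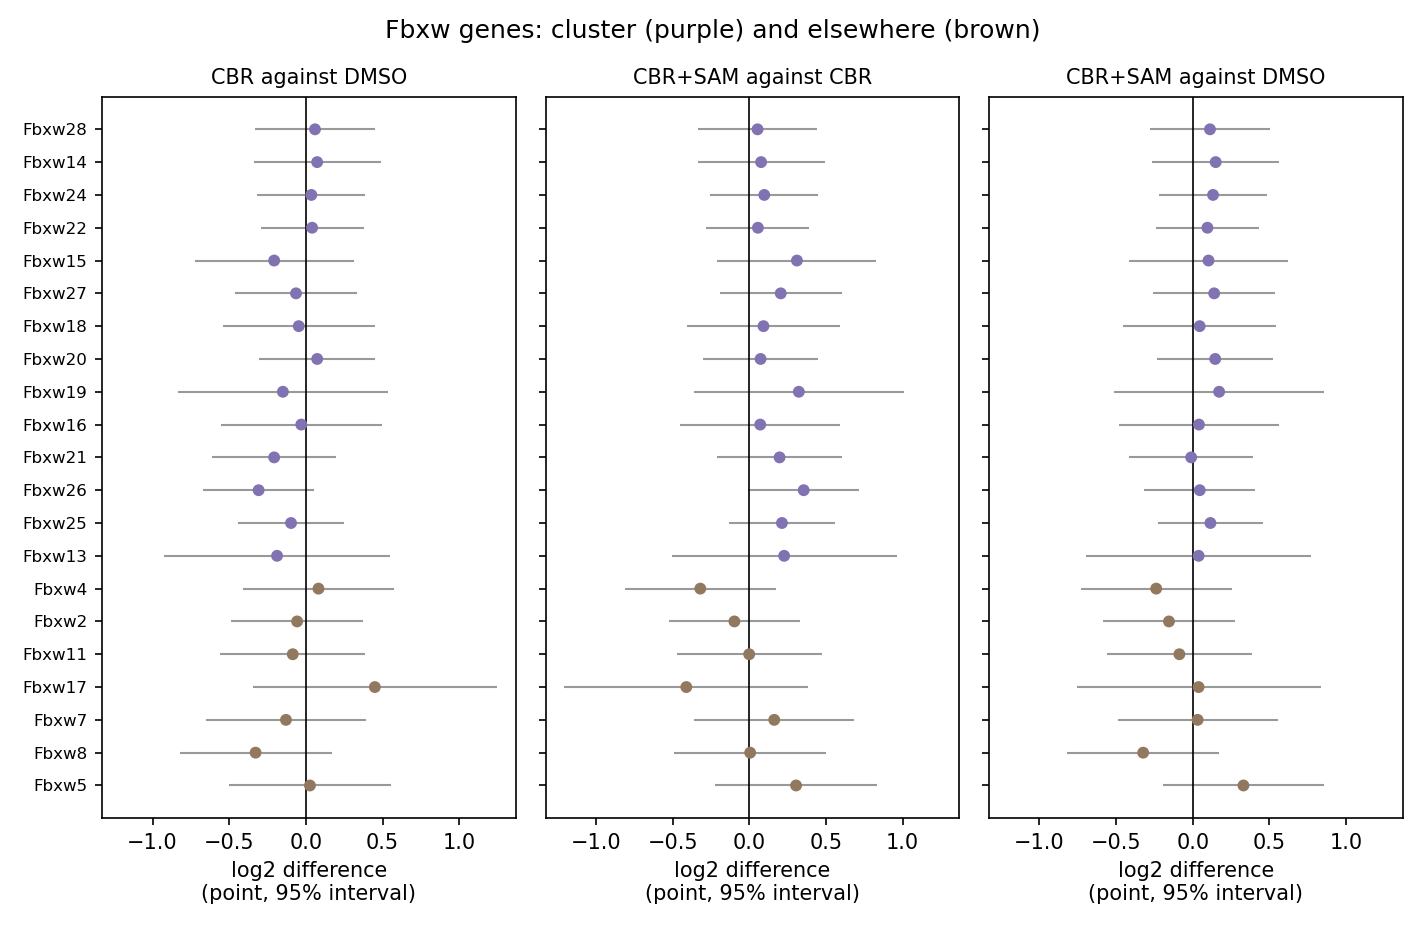
Log2 difference (point) with its 95% interval (line) for the 21 tested Fbxw genes in the 3 comparisons, the cluster in purple and the others in brown, each by falling mean level. Every interval includes 0, and in CBR+SAM against CBR all 14 purple points lie to the right of 0, between 0.05 and 0.35.

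Because the cluster genes share reads, the sums were tested as well. Fbxw28 and Fbxw14 added together, as 1 feature, differed by 0.07 (95% interval -0.34 to 0.47) between CBR and DMSO, by 0.06 between CBR+SAM and CBR and by 0.13 between CBR+SAM and DMSO. The sum of all 14, an added measure chosen after the values were seen, differed by 0.02 (95% interval -0.39 to 0.44), 0.10 (-0.31 to 0.51) and 0.12 (-0.29 to 0.53). Without CBR+SAM replicate 2, the last 2 differences were -0.07 and -0.01 for the pair and -0.04 and -0.01 for the sum of all 14. None of these passed the threshold (limma adjusted p of 0.988 or more).

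The cluster genes varied together between libraries in a way that crossed the groups. Relative to the mean of each gene over the 6 libraries, the cluster median was -0.16 and 0.08 in the DMSO replicates, -0.17 and 0.02 in the CBR replicates and -0.08 and 0.24 in the CBR+SAM replicates (log2). The Fbxo median was between -0.03 and 0.03 in all 6, and the Fbxl median between -0.09 (CBR+SAM replicate 1) and 0.09 (CBR replicate 2). Over Fbxo and Fbxl genes with a mean of at least 10 it ran from -0.09 in CBR+SAM replicate 2 to 0.10 in CBR replicate 2. In 12 of 14 cluster genes replicate 2 was above replicate 1 in all 3 groups, against 2 of 22 Fbxo genes, 4 of 15 Fbxl genes and 16.9% of all genes tested. Fbxw25 and Fbxw26 were the 2 exceptions. By deposited values, CBR+SAM replicate 2 was the highest library for 12 of 14 cluster genes, against 29.3% of all genes tested and 51.9% of the 154 genes averaging 1000 or above. Among Fbxo genes it was highest for 8 of 22 and lowest for 7. The column sum was also largest in CBR+SAM replicate 2 (1059424) and smallest in DMSO replicate 2 (956209). These counts of genes by library were not repeated with columns scaled to the same sum, and may differ there. Summed, the cluster held 2.28%, 2.76%, 2.35%, 2.62%, 2.42% and 2.75% of the signal of the 6 libraries. By that share DMSO replicate 2 was highest, with CBR+SAM replicate 2 close to it. What set the libraries apart, and its part in these values, was not tested.

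**Figure D5:**
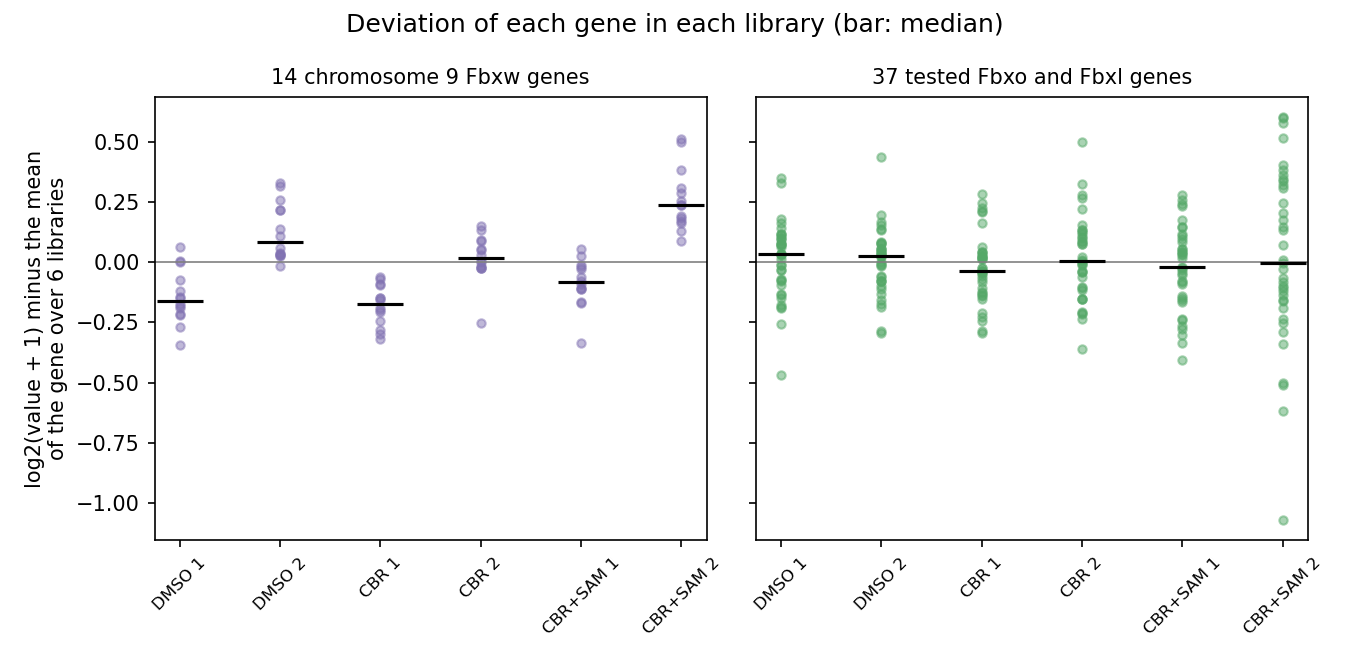
Deviation of each gene from its mean over 6 libraries (points, log2 of value + 1) for the 14 cluster genes and the 37 tested Fbxo and Fbxl genes, with the median as a bar. Cluster genes moved together, from a median of -0.17 in CBR replicate 1 to 0.24 in CBR+SAM replicate 2, while the joint median of Fbxo and Fbxl genes lay between -0.04 and 0.03.

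Some partners of the F-box proteins were abundant in the same libraries. Others were low, such as the E2 enzyme Ube2r2 with a mean of 2.305. Of the 14 tested genes listed as SCF core subunits and E2 enzymes, none was called in any comparison. Skp1a, the adaptor that binds the F-box, had 3657, 3589, 3447, 2963, 3313 and 3594. Rbx1, the RING subunit, had a mean of 1919, and Ube2d3, an E2 enzyme, 3005, and Cul1, the scaffold, had 1132. The mean sum of the 14 cluster genes was 7.38 times the mean of Skp1a. Protein amounts were not measured. The smallest p of this list were for Ube2l3 (log2 -0.24, CBR+SAM against DMSO) and Rnf7 (0.25, CBR+SAM against CBR, and 0.05 without CBR+SAM replicate 2).

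Cullins are switched on by the ubiquitin-like Nedd8, and 20 genes of that pathway and of cullin exchange were tested with none called. Dcun1d1, a Nedd8 ligase subunit, Nae1, part of its activating enzyme, and Nedd8 itself had means of 877.6, 492.5 and 435. The list's median log2 difference was -0.08, -0.06 and -0.13 in the 3 comparisons, in the order CBR against DMSO, CBR+SAM against CBR and CBR+SAM against DMSO. Without CBR+SAM replicate 2, most of the 20 genes had a positive difference in both comparisons of CBR+SAM. The negative medians there rested on that library. Cops8, for example, went from -0.29 to 0.225 in CBR+SAM against DMSO, while Cops5 went from -0.33 to -0.34. The smallest p of the list were for Cops5, the deneddylating subunit of the COP9 signalosome (-0.33, CBR+SAM against DMSO), and Dcun1d2 (-0.31, CBR+SAM against CBR).

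F-box proteins whose symbols fall outside the rule were tested for 6 genes. The histone demethylase Kdm2a had 72.5, 76.3, 49.1, 53.2, 69.8 and 94.8, so that both CBR libraries were below the other 4. Its log2 difference was -0.53 (SE 0.18) between CBR and DMSO and 0.66 (SE 0.18) between CBR+SAM and CBR, with limma adjusted p of 1.00 and 0.988. These 2 differences rest on the same CBR libraries. In each of these 2 comparisons, 1 of the 6 genes had an unadjusted limma p under 0.05, where 2.12% and 3.09% of all genes did. Btrc, Fbh1 and Kdm2b had means of 53.5, 29.2 and 22.7 and were not called.

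Substrates of SCF ligases and regulators of the anaphase-promoting complex gave 22 tested genes with none called. Btg4, which recruits the deadenylase that removes maternal mRNA, had 5437, 6222, 5475, 6400, 5758 and 6573, with replicate 2 above replicate 1 in all 3 groups as in the cluster. Plk4, the centriole kinase, and Wee2, the oocyte kinase that inhibits Cdk1, had means of 228.5 and 217.6. The smallest p were for Cdc25a (-0.35, CBR+SAM against DMSO) and Cdc27 (-0.30, CBR+SAM against CBR, and -0.11 without CBR+SAM replicate 2). Subunits of other cullin ligases gave 14 tested genes with none called. Eloc had a mean of 1724, Cul5 244.5 and Dcaf13 105.8, and the smallest p were for Elob (0.75, CBR+SAM against DMSO) and Cul2 (-0.42, CBR+SAM against DMSO, and -0.08 without CBR+SAM replicate 2).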

How the data were processed

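RNA was measured in 6 libraries of mouse 1-cell embryos: DMSO, CBR-5884 and CBR-5884 with S-adenosylmethionine, 2 libraries each, which the labels call biological replicates. fastp, kallisto, DESeq2 and the mm10 build appear, without versions, in the submitters' processing notes. The deposited table holds a signal per Ensembl gene, which the authors made with kallisto per those notes; its columns sum to 956209 to 1059424, close to TPM, and whether it was rescaled is not given in the sources used here. Read depth is not given there either, so precision rests on the spread between libraries alone.

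Gene identifiers were matched to GENCODE M21, which named 35768 of 36065 genes. Genes that reached 1 in 2 or more libraries were kept (12249). limma 3.58.1 (R 4.3.3) was fitted with a trend to log2(value + 1), with the 3 groups together, no replicate block and 3 residual degrees of freedom; p-values were adjusted by Benjamini-Hochberg over all genes. On simulated data with 200 changed genes of 12249, it recovered 46.8% (CBR against DMSO), 49% (CBR+SAM against CBR) and 49.5% (CBR+SAM against DMSO) of changes of 1 log2 unit, and 98.3%, 97.3% and 98.3% of changes of 2, and called 11.2, 11.8 and 12.4 unchanged genes on average. The simulated noise was drawn separately for each gene and library, without shifts shared by the genes of a library. These rates may thus not hold for the real libraries. Coding sequences and promoters were aligned with mafft 7.526. Word sharing was counted over 31-base words of the M21 transcripts of genes in the deposited table. Sharing with other M21 genes was not counted.

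Genes named with values were every Fbxw gene with a mean of at least 1, the 10 highest Fbxo and Fbxl genes, up to 5 tested genes per direction and comparison whose groups did not overlap, by smallest p, and, for partner lists, the highest 3 and the 2 with the smallest p. The values of 1 gene under this rule are not reported here. Members and lists were chosen with earlier results of these data known. The alternatives were the pseudocount, filters, scalings, the replicate block, subsets of libraries and summed copies. No genome sequence, protein sequence or read file was used here.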

Additional observations from a re-analysis of the deposited data

How the results depend on the processing

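No F-box gene was called under any of the 16 alternatives, of which the summed cluster was chosen after seeing the data. All 2164 recomputed log2 differences of the named F-box genes stayed on the same side of the threshold (limma, Benjamini-Hochberg); the lowest adjusted p was 0.108, for Fbxo5 in CBR+SAM against CBR without CBR+SAM replicate 1. Of the 141 differences, 87 changed sign in at least 1 alternative, in 155 values. The median over Fbxl in CBR+SAM against DMSO was 0.08 and became -0.17 without CBR+SAM replicate 2. The Fbxw share of the summed F-box level fell to 92.5% with Fbxw28 left out.

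Over all genes, the number called in CBR against DMSO was 0 (260 at an unadjusted p under 0.05), 1 with only the 4 libraries compared, and 0 to 2 with 1 library left out (2 without DMSO replicate 2). In CBR+SAM against CBR it was 1, and 0 with a pseudocount of 0.1, with no filter, with a mean of at least 10 and with protein-coding genes alone; with 1 library left out it was 0 to 8 (8 without CBR+SAM replicate 1). In CBR+SAM against DMSO it was 1, 0 in the same 4 settings, and 0 to 3 with 1 library left out (3 without DMSO replicate 2). The causes were not tested.

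With the replicate block, 0 F-box genes were called in each comparison, and 357, 554 and 340 genes had an unadjusted p under 0.05, against 260, 378 and 262 without it. The differences between replicates 2 and 1 correlated at 0.39 (DMSO and CBR), 0.22 (DMSO and CBR+SAM) and 0.09 (CBR and CBR+SAM). The main fit had no replicate block. Whether libraries with the same replicate number share more than that number was not tested. The median of all genes moved by at most 0.0723 log2 under the 3 other scalings (median-ratio scaling at most 0.0125). In CBR against DMSO, 1 cluster gene had an unadjusted limma p under 0.05 with only the 4 libraries compared (where 4.51% of all genes did). The count was also 1 with columns scaled to the same sum (2.42%) and with protein-coding genes alone (2.2%). In CBR+SAM against CBR, 1 did with no filter (3.84%). None of these passed the limma adjusted threshold. Fits that left 1 library in a group are not counted here. The limits are 2 libraries a group, unknown depth, and reads that Fbxw28 and Fbxw14 share.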
